A study of Mus musculus with 22 samples.

Results

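Genes of threonine, serine and one-carbon metabolism were followed across mouse embryos and early-lineage cell lines, namely Tdh, Gcat, Gldc, Phgdh, Psat1, Psph, Shmt1, Shmt2 and Mthfd2. They were taken by symbol from a deposited table of counts per gene, and all 9 of 9 were found among its 21881 symbols. The embryos were collected at embryonic day 3.5 and comprised 4 embryos labelled knockout for Nanog and called null below (2 female, 2 male), 2 heterozygous embryos (1 of each sex) and 2 wild type embryos (1 of each sex). Nanog is a transcription factor of the epiblast, and how its null allele was made is not given in the labels. The heterozygous and wild type embryos together are called Nanog-bearing below. The lines, all labelled wild type for Nanog, were 2 embryonic stem (ES) lines, 3 trophoblast stem (TS) lines and 2 extraembryonic endoderm (XEN) lines, which are cultured models of the epiblast, the trophectoderm and the primitive endoderm. Each line gave 2 technical replicate libraries from different passages. ES titles name serum-free culture and TS and XEN titles name no medium, so lineage and medium cannot be told apart. One ES line was female and the other male, 2 TS lines were female and 1 male, and both XEN lines were male.

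Threonine dehydrogenase, encoded by Tdh, and the ligase encoded by Gcat break threonine down in mitochondria to glycine and acetyl-CoA, and mouse ES cells are known for a strong dependence on this route. The glycine cleavage system, whose decarboxylase subunit is encoded by Gldc, passes a carbon unit from glycine to folate. Phgdh, Psat1 and Psph encode the consecutive enzymes that make serine from a glycolytic intermediate. Serine hydroxymethyltransferases then interconvert serine and glycine, with Shmt1 in the cytosol and Shmt2 in mitochondria, and Mthfd2 oxidises the mitochondrial folate carbon units that feed purine synthesis. Several of these genes, among them Phgdh, Psat1, Psph, Shmt2 and Mthfd2, are known targets of the amino acid response factor ATF4.

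Library totals, in units of 1e6 counts, were 16.4 to 21.9 in null embryos, 14.8 to 23.3 in heterozygous, 23.6 to 32.2 in wild type embryos, and 8.20 to 9.55 in ES, 9.97 to 16.5 in TS and 12.7 to 23.7 in XEN libraries. Nanog itself was at 0.488, 0.320, 0.624 and 0.300 counts-per-million of the library total (CPM) in the null embryos (F1, F2, M1, M2 in that order, as below), against 53.6 to 137 CPM in the Nanog-bearing embryos, as the labels have it. Summed ES and epiblast markers (11 of 12 listed genes in the table) ran from 8839 to 9374 CPM in ES libraries, 569 to 1265 CPM in TS libraries and 128 to 224 CPM in XEN libraries. Summed XEN markers (12 genes) ran from 47965 to 67737 CPM in XEN libraries, and summed TS markers (11 of 12 genes) from 3804 to 10094 CPM in TS libraries. Summed fibroblast markers (9 of 10 genes) ran from 15.2 to 236 CPM in TS libraries. They ran from 6.62 to 20.3 CPM in ES libraries and from 3.87 to 15.5 CPM in XEN libraries. The 236 CPM was in the first library of TS line F2, whose second library was at 26.9 CPM. By gene, Col1a1 and Col1a2 averaged 26.8 and 19.1 CPM in TS libraries, and Dcn and Lum 0.110 and 0.0161 CPM. Whether fibroblasts were present, and their part in the results, was not tested. By the count that follows, null embryos lacked more transcripts than the others. In a given null embryo 133 to 809 genes had at most 3 counts although they averaged at least 5 CPM in the other 7. Each Nanog-bearing embryo had 40 to 68 such genes. Genes lower in null embryos for any reason enter this count. Genes with any count numbered 11118 to 13660 in null embryos, which overlapped heterozygous (12793 to 13175) and wild type embryos (13242 to 13801). Embryo libraries were made from amplified cDNA and line libraries with another kit, so embryos and lines were never tested against each other. In whole embryos, fewer cells of a type and less RNA per cell cannot be told apart.

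The promoters of the 3 serine synthesis genes are shown because all 3 had their highest mean level in XEN lines. The windows are RefSeq sequence of build GRCm38.p6, from 250 bases before to 50 bases after the start, on the strand of the gene, which is the minus strand for all 3. Capitals mark the letters CCAAT, or ATTGG, which is the same motif on the other strand.
Phgdh, chr3:98339920-98340219: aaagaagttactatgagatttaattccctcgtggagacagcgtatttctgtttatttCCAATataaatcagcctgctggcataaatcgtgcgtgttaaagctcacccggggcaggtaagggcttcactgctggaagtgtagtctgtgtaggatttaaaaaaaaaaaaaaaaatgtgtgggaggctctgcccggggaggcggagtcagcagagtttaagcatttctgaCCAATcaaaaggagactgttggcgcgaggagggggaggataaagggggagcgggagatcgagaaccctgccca
Psat1, chr19:15925010-15925309, the first of 2 listed starts: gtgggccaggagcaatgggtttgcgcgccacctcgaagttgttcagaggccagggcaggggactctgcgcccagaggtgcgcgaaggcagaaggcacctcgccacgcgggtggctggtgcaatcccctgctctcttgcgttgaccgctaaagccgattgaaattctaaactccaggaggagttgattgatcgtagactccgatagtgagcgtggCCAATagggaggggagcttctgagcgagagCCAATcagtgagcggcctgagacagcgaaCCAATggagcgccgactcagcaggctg
Psph, chr5:129787204-129787503: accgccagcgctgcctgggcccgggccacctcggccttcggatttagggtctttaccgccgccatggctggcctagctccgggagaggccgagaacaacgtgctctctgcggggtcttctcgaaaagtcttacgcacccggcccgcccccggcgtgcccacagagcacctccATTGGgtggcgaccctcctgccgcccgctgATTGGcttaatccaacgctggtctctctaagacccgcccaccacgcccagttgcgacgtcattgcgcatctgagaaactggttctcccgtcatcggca
CCAAT, searched on both strands, was found in 6 of the 8 members with a window, against 37.4% of all 32851 promoter windows. Psat1 carried 3 matches in this window and none in that of its second start, and Phgdh and Psph carried 2 each. The E-box CACGTG was found in 1 member, Gcat, against 7.15% of all windows. The letters TGATGNAA, searched on both strands as a core of the element that ATF4 binds, were in 0 of 8 members, against 3.97% of all windows. These matches describe letters in a window and not binding.

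Between the cell lineages, Tdh and Gldc were highest in ES lines, and Phgdh and Psph, of serine synthesis, were highest in XEN lines. ES lines exceeded TS lines in Tdh, Gldc and Psph, exceeded XEN lines in Tdh, Gcat and Gldc, and were below XEN lines in Phgdh and Psph. TS lines were below XEN lines in Tdh, Phgdh, Psat1 and Psph. Calls are at an adjusted p (Benjamini-Hochberg over all genes tested) under 0.05 in the quasi-likelihood test of edgeR, with the 2 libraries of a line summed and n = 2 ES, 3 TS and 2 XEN lines. Where an ES or XEN line is left out below, 1 line of that lineage remains and is assumed to vary like the other lineages. Of 14687 genes tested, 20.0% were called higher and 21.3% lower in ES against TS lines, where 3 of 9 members were higher and 0 lower. In ES against XEN lines 23.4% of genes were called higher and 21.8% lower, and of the members 3 were higher and 2 lower. In TS against XEN lines 20.3% of genes were called higher and 16.4% lower, and of the members 0 were higher and 4 lower. The 4 members lower in TS against XEN lines are a larger share of the members than that background, and the other counts are within 2 members of theirs. Of these 4 members, 3 are the serine synthesis genes. The members were chosen with earlier results of these data known, so these shares are described and not tested. The median log2 fold change of the members was 0.45 in ES against TS lines (all genes tested, -0.02), -0.27 in ES against XEN lines (all genes, 0.05) and -0.99 in TS against XEN lines (all genes, 0.02). The 3 comparisons share lines and are not independent.

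**Figure D1:**
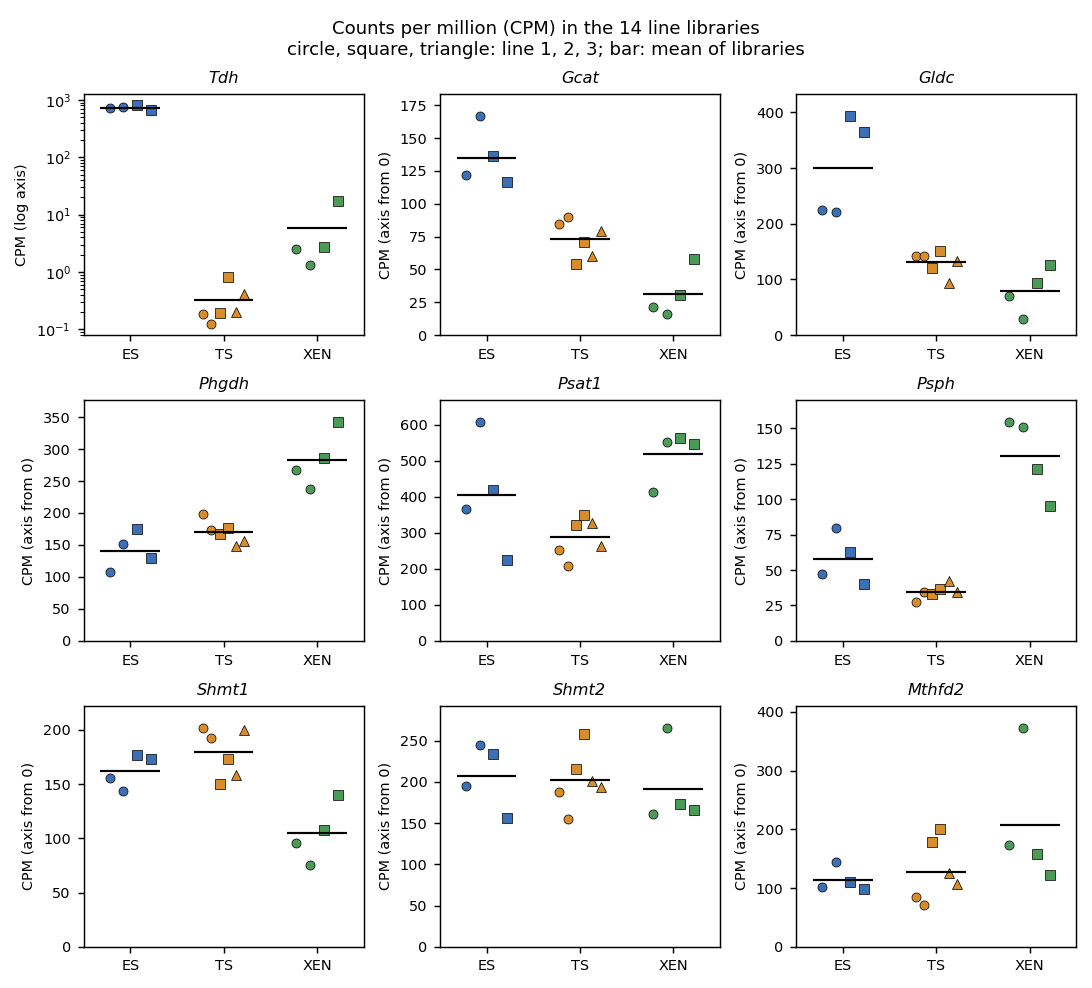
Level of each member in counts-per-million of the library total (CPM) in the 14 line libraries, with Tdh on a log axis and the others on axes from 0. Each point is a library, the bar is the mean over libraries, and circle, square and triangle mark the lines numbered 1, 2 and 3 of each lineage. Tdh lay at 673 to 807 CPM in ES libraries and at most 17.1 CPM elsewhere, and Phgdh and Psph were highest in XEN libraries.

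Tdh encodes the dehydrogenase that opens threonine breakdown. It was at 720 and 743 CPM in the libraries of ES line F1 and at 807 and 673 CPM in those of ES line M2. In TS libraries it was at 0.182 and 0.123 CPM for line F1, 0.193 and 0.824 CPM for line F2, and 0.201 and 0.414 CPM for line M3, which is 24 counts over all 6 libraries. In XEN libraries it was at 2.51 and 1.31 CPM for line M1 and at 2.71 and 17.1 CPM for line M2. No library of one lineage overlapped with another, and the ES libraries agreed closely (736 ± 55.8 CPM, SD, n = 4 libraries). The log2 fold change (edgeR) was 11.09 ± 0.82 (SE) for ES against TS (adjusted p = 0.000193), 6.85 ± 0.79 for ES against XEN (adjusted p = 0.000640) and -4.24 ± 0.72 for TS against XEN (adjusted p = 0.00377). Over the 10999 genes averaging 5 CPM or more, the 2 libraries of XEN line M2 differed most (SD of log2 differences 0.70, other lines 0.39 to 0.48). The level of Tdh in XEN lines rested on the second library of line M2, which reached 2.32% of the ES mean. In that library Pou5f1, a defining ES gene, was at 0.278% of its ES mean. Over the 11 ES markers the shares there ran from 0.0123% for Dppa5a to 2.49% for Klf2 and 15.1% for Klf4, which were the only markers above the share of Tdh.

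Gcat encodes the ligase that splits the product of threonine dehydrogenase into glycine and acetyl-CoA. It was at 122, 167, 136 and 116 CPM in the ES libraries, at 54.4 to 89.8 CPM in TS libraries (median 75.1) and at 21.1, 16.3, 30.7 and 58.1 CPM in XEN libraries. Every ES library was above every TS and XEN library. ES lines exceeded XEN lines by 1.85 ± 0.39 on the log2 scale (edgeR, adjusted p = 0.00701), while the difference from TS lines, 0.82 ± 0.34, did not pass (adjusted p = 0.0873). It passed with limma voom (adjusted p = 0.0136) and, in edgeR, without XEN line M1 (adjusted p = 0.0202), without XEN line M2 (0.0204) and without the second technical replicates (0.0446). TS against XEN gave 1.03 ± 0.35 (adjusted p = 0.0545), and 1.76 without XEN line M2, whose second library was the highest of the XEN libraries (adjusted p = 0.00760). Without the second technical replicates it gave 1.21 (edgeR adjusted p = 0.0183), and DESeq2 (0.0140) and limma voom (0.0396) called it.

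Gldc encodes the glycine decarboxylase of the glycine cleavage system. It was at 224 and 220 CPM in ES line F1 and at 393 and 365 CPM in ES line M2, so the ES lines differed from each other by more than their passages did. TS libraries held 93.4 to 151 CPM (median 138), and XEN libraries 70.5, 28.4, 94.4 and 126 CPM. All ES libraries were above all others, and TS and XEN libraries overlapped. ES lines exceeded TS lines by 1.12 ± 0.37 on the log2 scale (edgeR, adjusted p = 0.0444) and XEN lines by 1.65 ± 0.42 (adjusted p = 0.0162). The call against TS lines was lost on leaving out either ES line, with a log2 fold change of 1.44 without F1 (edgeR adjusted p = 0.0688) and 0.72 without M2 (0.288). It was also lost without TS line F1, F2 or M3 (adjusted p = 0.0834, 0.0913 and 0.0940) and without the first technical replicates (0.161) and with sex as a term (0.0754). The call against XEN lines was lost without ES line M2 (edgeR log2 fold change 1.23, adjusted p = 0.104) and without the first technical replicates (0.0599). TS against XEN gave 0.52 ± 0.38 (edgeR adjusted p = 0.318), and 1.3 without XEN line M2 (adjusted p = 0.0320).

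Phgdh encodes the dehydrogenase that commits a glycolytic intermediate to serine synthesis. It was at 108, 151, 174 and 130 CPM in ES libraries, at 148 to 198 CPM in TS libraries (median 170) and at 267, 238, 286 and 342 CPM in XEN libraries. All XEN libraries were above all others. The log2 fold change was -1.32 ± 0.19 for ES against XEN (edgeR, adjusted p = 0.00149) and -0.99 ± 0.17 for TS against XEN (adjusted p = 0.00372), and both were called under all 17 alternatives. ES against TS gave -0.33 ± 0.17 and did not pass (edgeR adjusted p = 0.158).

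Psat1, the aminotransferase that follows, was at 365 and 607 CPM in ES line F1 and at 418 and 224 CPM in ES line M2. TS libraries held 207 to 350 CPM (median 293) and XEN libraries 412, 551, 562 and 547 CPM. XEN and TS libraries did not overlap, and ES libraries ran across both. TS against XEN lines gave -1.15 ± 0.25 on the log2 scale (edgeR, adjusted p = 0.00964), called under all 17 alternatives. ES lines gave -0.71 ± 0.27 against XEN lines (edgeR adjusted p = 0.0699, and 0.0490 without ES line F1) and 0.45 ± 0.25 against TS lines (edgeR adjusted p = 0.182).

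Psph, the phosphatase that releases serine, was at 47.3, 79.8, 62.9 and 40.3 CPM in ES libraries, at 27.8 to 42.2 CPM in TS libraries (median 34.4) and at 154, 151, 121 and 95.5 CPM in XEN libraries. XEN libraries were above all others, and 1 ES library fell within the range of TS libraries. The order was XEN, ES, TS, with a log2 fold change of -1.52 ± 0.25 for ES against XEN (edgeR, adjusted p = 0.00253) and -2.19 ± 0.22 for TS against XEN (adjusted p = 0.000430). The excess over TS lines, 0.67 ± 0.22 (edgeR, adjusted p = 0.0419), was lost without ES line F1 (0.47, adjusted p = 0.286), ES line M2 (0.84, adjusted p = 0.0804), TS line F1 (0.58, adjusted p = 0.107) or TS line F2 (0.66, adjusted p = 0.107). It was also lost without the first (edgeR adjusted p = 0.111) or the second (0.150) technical replicates and with sex as a term (0.0555). With the libraries unsummed and the line as a random effect (limma voom) it was lost as well (adjusted p = 0.0759).

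**Figure D2:**
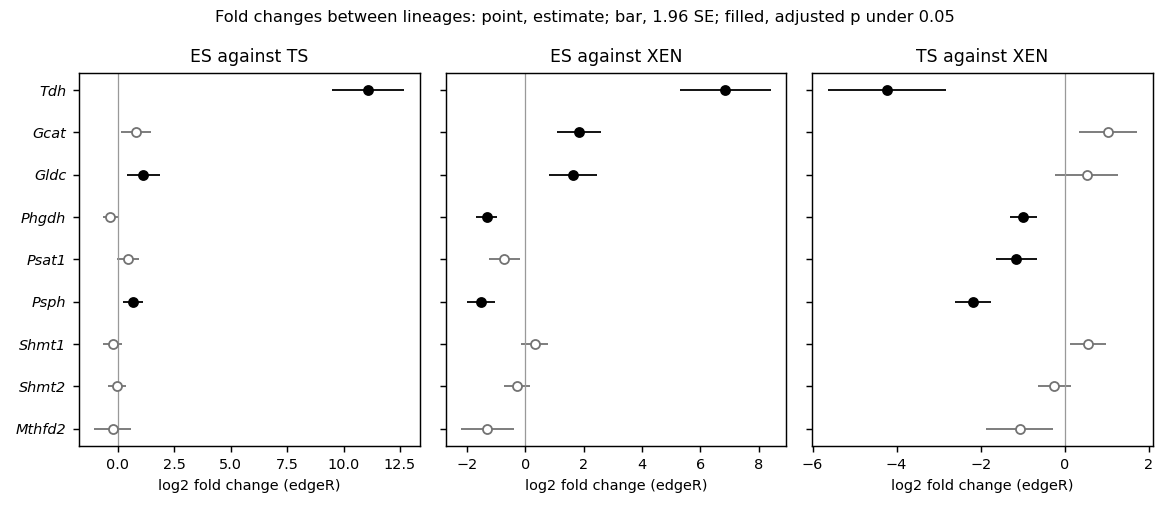
Log2 fold change (edgeR) of each member between lineages, in a panel for each pair of lineages, and a positive value meaning higher in the lineage named first. Points are estimates from 2 ES, 3 TS and 2 XEN lines, bars run 1.96 SE to each side, and filled points have an adjusted p under 0.05. Tdh at 11.09 and 6.85 stands outside the range of the other members, and the serine synthesis genes lie below 0 against XEN lines.

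The hydroxymethyltransferases and Mthfd2 passed in no lineage comparison in edgeR with all lines. DESeq2 called Mthfd2 in ES against XEN (adjusted p = 0.0214) and TS against XEN (0.0469) and Shmt1 in TS against XEN (0.0385), and limma voom called Mthfd2 in ES against XEN (0.0421). Shmt1 was at 155, 143, 177 and 173 CPM in ES libraries, at 150 to 202 CPM in TS libraries (median 183) and at 96.1, 75.7, 107 and 140 CPM in XEN libraries. XEN libraries were below all others. ES against TS gave -0.23 ± 0.21 (edgeR adjusted p = 0.418), with log2 fold changes of 0.33 ± 0.23 for ES against XEN (edgeR adjusted p = 0.285) and 0.55 ± 0.21 for TS against XEN (adjusted p = 0.0808, and 0.0425 without XEN line M2). Shmt2 was at 195, 244, 234 and 156 CPM in ES libraries, at 155 to 258 CPM in TS libraries (median 197) and at 161, 265, 174 and 165 CPM in XEN libraries, and all 3 ranges overlapped. Its log2 fold changes (edgeR) were -0.02 ± 0.21 between ES and TS lines (adjusted p = 0.943), -0.27 ± 0.23 between ES and XEN lines (0.369) and -0.25 ± 0.21 between TS and XEN lines (0.383). Mean CPM over libraries, which is not TMM-scaled, ran the other way, at 207 in ES, 202 in TS and 191 in XEN libraries, so no direction is given. Mthfd2 was at 101, 144, 111 and 97.8 CPM in ES libraries, at 71.7 to 200.4 CPM in TS libraries (median 116) and at 174, 373, 159 and 123 CPM in XEN libraries. The second library of XEN line M1 was the highest. ES against TS gave -0.22 ± 0.41 (edgeR adjusted p = 0.689), ES against XEN gave -1.29 ± 0.46 (edgeR adjusted p = 0.0528) and TS against XEN gave -1.07 ± 0.41 (adjusted p = 0.0762). The ES against XEN difference passed without XEN line M2 (-1.73, edgeR adjusted p = 0.0301), TS line F1 (0.0334) or TS line F2 (0.0477), and the TS against XEN difference passed without XEN line M2 (-1.50, edgeR adjusted p = 0.0430) or TS line F2 (-1.40, adjusted p = 0.0465).

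Non-overlap of libraries was also counted, without a fit. ES libraries lay above all TS libraries for 3 members (Tdh, Gcat and Gldc), as for 26.6% of genes tested, and below them for 0 members, as for 23.7% of genes. ES libraries lay above all XEN libraries for 4 members (the same 3 and Shmt1; 39.5% of genes) and below them for 2 (Phgdh and Psph; 18.5%). TS libraries lay above all XEN libraries for 1 member (Shmt1; 27.3% of genes) and below them for 4 (Tdh, Phgdh, Psat1 and Psph; 11.0%).

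Divided by transcript length, Tdh was the most abundant member in all 4 ES libraries, at 358 to 429 CPM per kilobase, and the least abundant in all TS and XEN libraries. Psat1 led in all 4 XEN libraries, at 158 to 215 CPM per kilobase. The balance of the mitochondrial Shmt2 to the cytosolic Shmt1, as a log2 ratio of counts, averaged 0.34 ± 0.38 in ES libraries (SD, n = 4), 0.16 ± 0.37 in TS libraries (n = 6) and 0.87 ± 0.67 in XEN libraries (n = 4), with overlapping ranges. The second library of XEN line M1 was at 1.81, against 0.24 to 0.74 in the other XEN libraries.

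The genes whose level over the 7 lines was most like that of a member were found by the root mean square difference of centred log2 CPM values. For Tdh they were Pou5f1, a core pluripotency factor (difference 1.77 log2 units), Zfp600 (1.95) and Rex2 (1.99). For Gldc they were Repin1 (0.25), Pdxk (0.28), which phosphorylates vitamin B6, and Tmem69 (0.29). For Psph they were Adam19 (0.13), Arhgap17 (0.19) and Stx3 (0.22).

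Beyond the members, 63 other genes of the connected pathways were listed and 61 were tested in lines. For ES against TS 12 were called higher and 8 lower, for ES against XEN 14 higher and 10 lower, and for TS against XEN 13 higher and 7 lower, beside the shares of all genes given above. In the glycine cleavage system Amt, the aminomethyltransferase that works with Gldc, averaged 93.9 ± 7.82 CPM in ES libraries (SD, n = 4), 30.6 CPM in TS libraries and 1.11 CPM in XEN libraries. Its log2 fold changes were 1.55 ± 0.20 for ES against TS (edgeR adjusted p = 0.00147), 6.05 ± 0.29 for ES against XEN (2.14e-05) and 4.49 ± 0.26 for TS against XEN (6.20e-05). Dld, the dihydrolipoamide dehydrogenase shared with other complexes, was lower in ES than in TS lines (log2 fold change -0.58 ± 0.16, edgeR adjusted p = 0.0215). Gcsh, the lipoyl carrier protein, did not pass in any lineage comparison and gave -0.93 ± 0.39 for ES against XEN and -0.90 ± 0.35 for TS against XEN.

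In the methionine cycle and transsulfuration list 4 of 12 tested genes were higher and 2 lower in ES against TS lines, 6 higher and 1 lower in ES against XEN lines, and 3 higher and 0 lower in TS against XEN lines. Cth, which makes cysteine from cystathionine, averaged 122 CPM in ES libraries and 15.6 CPM in TS libraries (log2 fold change 2.91 ± 0.46, edgeR adjusted p = 0.00296). Mat2b, the regulatory subunit of methionine adenosyltransferase, was higher in ES lines than in TS lines (1.02 ± 0.19) and XEN lines (1.58 ± 0.22). Cbs, which makes cystathionine, averaged 60.4 CPM in ES libraries and 63.7 CPM in TS libraries and had 6 counts over the 4 XEN libraries. By summed counts its ratio was 699 for ES over XEN (95% interval 321 to 1907, counting error only) and 742 for TS over XEN (341 to 2023). The betaine homocysteine methyltransferases Bhmt and Bhmt2 had 0 counts in XEN libraries. By summed counts, against a floor of 3 counts over the XEN group, the ratio of ES over XEN was at least 194 for Bhmt and 333 for Bhmt2. That of TS over XEN was at least 99.5 for Bhmt2. These bounds hold for the sums and cover no spread between libraries. Bhmt ran from 1.05 to 17.5 CPM and Bhmt2 from 3.56 to 24.0 CPM in ES libraries, and Bhmt2 from 1.64 to 6.61 CPM in TS libraries. Bhmt had 303 counts in ES libraries and 3 in TS libraries, a ratio of 215 (interval 72.8 to 1047). Gnmt, the glycine methyltransferase, was lower in ES than in TS lines (log2 fold change -2.95 ± 0.67, edgeR adjusted p = 0.0123) and higher in TS than in XEN lines (5.67 ± 0.82, adjusted p = 0.00197), from 4 counts over the XEN libraries.

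Among cytosolic folate enzymes 2 of 8 were higher and 1 lower in ES against TS lines, 3 higher and 0 lower in ES against XEN lines, and 3 higher and 1 lower in TS against XEN lines. Fpgs, which traps folates in the cell, averaged 108 CPM in ES, 379 CPM in TS and 40.3 CPM in XEN libraries and passed in all 3 comparisons (edgeR log2 fold changes -1.87 ± 0.20, 1.09 ± 0.20 and 2.97 ± 0.21). Aldh1l1, which oxidises formyl folate, averaged 49.8, 20.6 and 1.38 CPM in ES, TS and XEN libraries, with log2 fold changes of 4.99 ± 0.65 for ES against XEN and 3.77 ± 0.60 for TS against XEN. Mthfs was higher in ES (1.57 ± 0.44) and TS (1.25 ± 0.41) than in XEN lines. Of the 5 mitochondrial folate genes beside Mthfd2, only Mthfd1l, the formyl folate synthetase, was called, with 0.77 ± 0.20 for ES against TS and -0.88 ± 0.20 for TS against XEN. For ES against XEN, Slc25a32 gave -0.45 ± 0.25 and Aldh1l2 gave 1.28 ± 0.85, neither of which passed.

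Of the folate uptake genes, the proton-coupled carrier Slc46a1 averaged 106 CPM in TS libraries, against 11.5 CPM in ES and 9.73 CPM in XEN libraries, with log2 fold changes of -3.27 ± 0.31 for ES against TS (edgeR adjusted p = 0.000435) and 3.18 ± 0.30 for TS against XEN (0.000366). The reduced folate carrier Slc19a1 was lower in ES (-0.89 ± 0.24) and TS lines (-0.65 ± 0.21) than in XEN lines. Folr1, a folate receptor, gave -1.73 ± 0.80 for ES against TS and -0.56 ± 0.82 for ES against XEN and did not pass. In the list of uptake and breakdown of serine, glycine and threonine 0 of 9 tested genes were higher and 2 lower in ES against TS lines, 0 higher and 6 lower in ES against XEN lines, and 1 higher and 2 lower in TS against XEN lines. Slc1a4, a neutral amino acid carrier, averaged 11.9 CPM in ES libraries, 63.6 CPM in TS libraries and 74.9 CPM in XEN libraries (-2.45 ± 0.31 for ES against TS, -3.09 ± 0.33 for ES against XEN). Slc7a5, a large neutral amino acid carrier, was lower in ES than in TS lines (-1.02 ± 0.31). Slc38a2, Slc3a2 and Sfxn1, the mitochondrial serine carrier, were lower in ES than in XEN lines (-1.77 ± 0.37, -1.28 ± 0.31 and -1.12 ± 0.21). Slc38a2 (-1.48 ± 0.32) and Sfxn1 (-0.57 ± 0.19) were lower and serine racemase, Srr, was higher (0.67 ± 0.15) in TS than in XEN lines.

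Of 6 purine synthesis genes Pfas alone was called, and it stepped down from ES through TS to XEN lines (0.44 ± 0.15 for ES against TS, 0.92 ± 0.16 for ES against XEN, 0.47 ± 0.15 for TS against XEN, edgeR adjusted p = 0.0455, 0.00377 and 0.0429). Adsl gave 0.37 ± 0.15 for ES against TS and 0.48 ± 0.17 for ES against XEN, and Ppat 0.26 ± 0.20 for TS against XEN, none of which passed. Of 14 listed genes of ATF4 and its other targets 3 were higher and 1 lower in ES against TS lines, and 3 were higher and 2 lower in each of the comparisons with XEN lines. Asns, the asparagine synthetase, averaged 880 CPM in ES libraries, 264 CPM in TS libraries and 279 CPM in XEN libraries (1.67 ± 0.33 for ES against TS, 1.23 ± 0.37 for ES against XEN). The stress factor Nupr1 was higher in ES lines than in TS (3.95 ± 0.65) and XEN lines (4.13 ± 0.77), and Atf5 than in TS lines (1.62 ± 0.54). Cebpb was lower in ES than in TS lines (-3.10 ± 0.68) and higher in TS than in XEN lines (4.83 ± 0.75). Stc2 was higher in ES (4.05 ± 0.61) and TS lines (3.60 ± 0.58) than in XEN lines, and Vldlr was lower in ES than in XEN lines (-2.43 ± 0.70). In TS against XEN lines Aldh18a1, a proline synthesis enzyme, was lower (-1.07 ± 0.30) and Ddit4 higher (1.62 ± 0.45).

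Within lines, the technical replicates from different passages were also set side by side. The difference of log2 CPM between the technical replicates (2 minus 1) was taken for the set of Phgdh, Psat1, Psph, Shmt2 and Mthfd2, a set formed with these results known, so it is described and not tested. In ES line F1 all 5 were higher in the second library (median 0.62), and in ES line M2 all 5 were lower (median -0.58). In XEN line M1 4 of 5 were higher (median 0.55), and the medians of the other lines lay between -0.32 in TS line F1 and 0.16 in TS line F2. Over the 10999 genes averaging 5 CPM or more, the median difference lay between -0.10 and 0.05 in every line and its SD between 0.39 and 0.70. Shmt2 in ES line F1 and Phgdh, Shmt2 and Mthfd2 in ES line M2 lay inside the 5th to 95th percentile of single genes. Atf4 and its other listed targets were higher in the second library for 14 of 14 genes in ES line F1 (median 0.89), for 2 of 14 in ES line M2 (median -0.98) and for 12 of 14 in XEN line M1 (median 0.98). The lists did not always go together: the median of the ATF4 list was -0.73 in XEN line M2, where that of the 5 members was 0.01, and 0.19 in TS line F1, where that of the 5 members was -0.32. Of the other members, Gcat differed by 0.56 in ES line F1 and by -0.22 in ES line M2, Tdh by 0.15 and -0.26, Gldc by 0.08 and -0.11 and Shmt1 by -0.01 and -0.03. Outside ES lines Gldc differed by -1.18 in XEN line M1, and Tdh by 2.67 in XEN line M2. Since the libraries come from different passages, culture and library cannot be told apart.

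**Figure D3:**
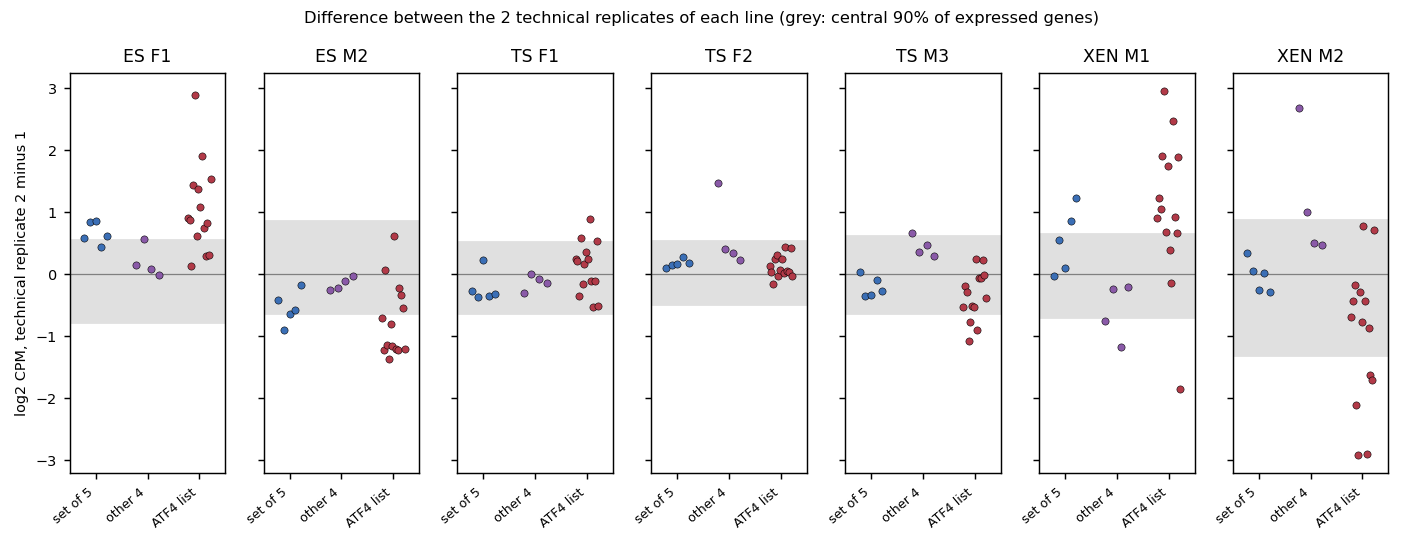
Difference of log2 CPM between the 2 technical replicates of each of the 7 lines (replicate 2 minus replicate 1). Points are genes: the set of Phgdh, Psat1, Psph, Shmt2 and Mthfd2, the other 4 members, and the 14 genes of the ATF4 list, and the grey band spans the 5th to the 95th percentile of 10999 genes. The set of 5 lies above 0 in ES line F1 and below 0 in ES line M2, as do most genes of the ATF4 list, and the Tdh differences in TS lines rest on 2 to 10 counts a library.

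In embryos no member passed the test between genotypes. The fit held all 8 embryos with genotype and sex as terms (edgeR, 12965 genes tested), and the question was whether these enzymes depend on Nanog. In null against Nanog-bearing embryos 0 of 9 members were called, beside 0.0154% of all genes, and 0 members had an unadjusted p under 0.05, beside 644 genes. In null against wild type embryos 0 of 9 were called, beside 0.0154% of genes (1 member and 500 genes at an unadjusted p under 0.05). In null against heterozygous embryos 0 of 9 were called, beside 0.00771% of genes (0 members and 357 genes unadjusted). In heterozygous against wild type embryos 0 of 9 were called, beside 0% of genes (0 members and 107 genes unadjusted). The difference of the null effect between female and male embryos came from a separate fit of null status, sex and their product. Heterozygous and wild type embryos were pooled in that fit. The difference was called for 0 of 9 members, beside 0% of genes (0 members and 513 genes unadjusted). DESeq2 also called 0 members in each of these comparisons while calling 76 to 102 genes, and limma voom called 0 members and 0 genes. The biological coefficient of variation over the embryos, 0.979, limits what could be detected. Primitive endoderm markers had, in null embryos, a median log2 fold change of -2.32 against Nanog-bearing and -2.73 against wild type embryos over the 10 of 12 genes tested, of which 0 were called. Lamb1 averaged 31.4 CPM in null and 186 CPM in Nanog-bearing embryos, Sparc 30.6 and 152 CPM, and Lama1 1.48 and 33.4 CPM. Gata6 went the other way, at 166 CPM in null and 147 CPM in Nanog-bearing embryos. Dab2, at 1317 CPM in null and 1451 CPM in Nanog-bearing embryos, made up most of the summed level, which ran from 1191 to 2032 CPM in null, 1760 to 2075 CPM in heterozygous and 1927 to 2712 CPM in wild type embryos. Foxa2 was at 0 in all 8 embryos. Summed TS and trophectoderm markers were at 8094, 2943, 9468 and 3292 CPM in the null embryos. In Nanog-bearing embryos they ran from 6311 to 8930 CPM. The part of either set of markers in the members' values was not tested. The authors' deposited table of 78 Nanog-regulated genes holds 0 of the 9 members and 0 of the 63 other pathway genes. A table this short, beside 21881 symbols counted, would hold few or none of them by chance. Their absence from it therefore says nothing on whether these enzymes depend on Nanog.

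**Figure D4:**
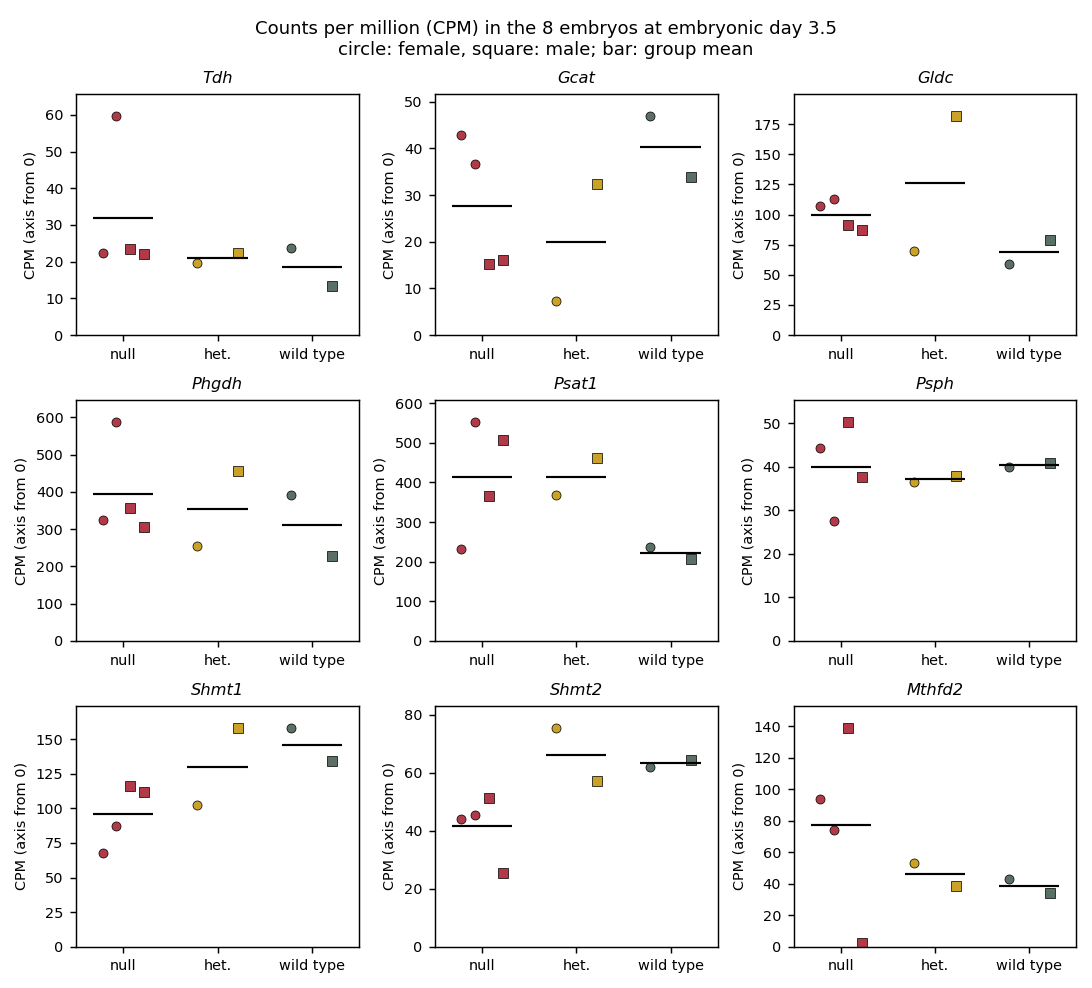
Level of each member in counts-per-million of the library total (CPM, axes from 0) in the 8 embryos at embryonic day 3.5, with null, heterozygous (het.) and wild type embryos from left to right. Each point is an embryo, circles are female and squares male, and the bar is the group mean. Shmt2 lies at 25.5 to 51.4 CPM in null embryos and at 57.1 to 75.5 CPM in the others, and Mthfd2 in null embryo M2 lies at 2.10 CPM.

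Tdh was at 22.4, 59.7, 23.4 and 22.1 CPM in the null embryos, at 19.8 and 22.5 CPM in the female and male heterozygous embryos and at 23.7 and 13.3 CPM in the female and male wild type embryos. Apart from null embryo F2 the genotypes overlapped, and the log2 fold change of null against Nanog-bearing embryos was 0.76 ± 0.52 (edgeR adjusted p = 0.961). Gcat ran from 15.2 to 42.9 CPM in null embryos, against 7.39 to 46.9 CPM in Nanog-bearing embryos, and gave -0.01 ± 0.63. Gldc held 107, 113, 91.4 and 87.0 CPM in null embryos, 70.1 and 182 CPM in heterozygous embryos and 58.9 and 78.9 CPM in wild type embryos, and gave 0.27 ± 0.33. The null embryos all exceeded the wild type embryos in Gldc, and the male heterozygous embryo was the highest. In Shmt1 and Shmt2 the null embryos were all below the wild type embryos. How many of all genes separate null from wild type embryos was not counted. With 4 null and 2 wild type embryos such an order can arise by chance, so it is described and not read as a result.

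Of the serine synthesis genes, Phgdh was at 325, 587, 357 and 306 CPM in the null embryos, at 254 and 456 CPM in heterozygous embryos and at 391 and 229 CPM in wild type embryos, with overlapping groups (0.35 ± 0.30). Psat1 was at 231, 552, 365 and 507 CPM in null embryos, at 367 and 461 CPM in heterozygous embryos and at 237 and 206 CPM in wild type embryos. Its log2 fold change was 1.03 ± 0.40 for null against wild type (edgeR unadjusted p = 0.0271, adjusted p = 1), 0.13 ± 0.38 for null against heterozygous and 0.90 ± 0.44 for heterozygous against wild type (unadjusted p = 0.0686). Psat1 was lower in the wild type embryos than in 3 of 4 null embryos and both heterozygous embryos. Psph was at 27.5 to 50.3 CPM in null embryos, against 36.6 to 40.9 CPM in Nanog-bearing embryos (0.14 ± 0.38).

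Shmt2 was at 44.0, 45.3, 51.4 and 25.5 CPM in the null embryos, at 75.5 and 57.1 CPM in heterozygous embryos and at 61.9 and 64.6 CPM in wild type embryos. It was the only member whose null embryos did not overlap the Nanog-bearing embryos, with all null embryos lower. Of all genes tested 4.21% were lower and 1.11% higher in null embryos without overlap. The log2 fold change was -0.55 ± 0.34 (edgeR adjusted p = 0.944), and the difference cannot be called at this spread. Shmt1 was at 67.7, 87.2, 116 and 112 CPM in null embryos, at 102 and 158 CPM in heterozygous embryos and at 158 and 134 CPM in wild type embryos (-0.43 ± 0.27). The log2 ratio of Shmt2 to Shmt1 averaged -1.22 ± 0.65 over 4 null embryos, -0.95 ± 0.73 over 2 heterozygous and -1.20 ± 0.21 over 2 wild type embryos (SD).

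Mthfd2 was at 93.7, 73.9, 139 and 2.10 CPM in the null embryos, at 53.3 and 38.7 CPM in heterozygous embryos and at 42.7 and 34.1 CPM in wild type embryos. Of the null embryos 3 were above all others and M2, with 42 counts, was below all others. The log2 fold change of 0.93 ± 0.81 (edgeR adjusted p = 0.983) turned to -0.41 without null embryo M1. Null embryo M2 lacked 809 genes by the count above, and the part of this in its Mthfd2 value was not tested. The difference of the Mthfd2 effect between sexes, -0.12 ± 1.66, was called without null embryo M1 (4.67, edgeR adjusted p = 0.0283), when null embryo M2 was the only male null embryo left and 238 genes were called in all.

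Divided by transcript length, Phgdh was the most abundant member in 6 of 8 embryos and Psat1 in the other 2, null embryo M2 and the female heterozygous embryo. Mean levels of Phgdh were 208 ± 69.0 CPM per kilobase in null embryos and 176 ± 57.5 CPM per kilobase in Nanog-bearing embryos (SD, n = 4 each), against 16.9 ± 9.85 and 10.5 ± 2.46 CPM per kilobase of Tdh.

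Of the other pathway genes 58 were tested in embryos and 0 were called in any genotype comparison, and their median log2 fold change of null against Nanog-bearing embryos was 0.03, beside -0.05 over all genes. The lowest p-values by list belonged to Gcsh (0.89 ± 0.39) and Amt (0.60 ± 1.08) in glycine cleavage, Aldh1l2 (-3.85 ± 2.03) and Mthfd2l (-6.22 ± 3.20) in mitochondrial folate metabolism, and Aldh1l1 (-0.60 ± 0.33) and Mthfs (0.94 ± 0.83) in cytosolic folate metabolism. In the other lists they belonged to Folr1 (0.59 ± 0.32), Slc46a1 (0.37 ± 0.25), Ahcy (-0.61 ± 0.27), Mat2b (0.69 ± 0.36), Gart (-0.36 ± 0.28), Adsl (0.33 ± 0.36), Slc1a4 (-3.99 ± 2.45), Srr (0.29 ± 0.28), Pycr1 (-3.07 ± 1.94) and Vldlr (-3.07 ± 2.30), as log2 fold changes of null against Nanog-bearing embryos with SE. Mthfd2l had 0 counts in all null embryos and averaged 0.813 CPM in heterozygous and 0.254 CPM in wild type embryos. Its fitted value is therefore no measure of size. Aldh1l2, Vldlr, Slc1a4 and Pycr1 had 11, 13, 55 and 84 counts over the 4 null embryos, so the size of their fitted values is uncertain too. None of the named genes passed.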

How the data were processed

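RNA sequencing of 8 embryos and 14 line libraries was analysed from the deposited table of counts per gene symbol, raw whole numbers that the authors made. Per the submitters' processing notes, TopHat 1.3.1, edgeR (no version) and build mm9 were used; the sources used here do not give the counting program, its annotation or the use of strand, so reads of overlapping genes may not be told apart. The authors' deposited table of Nanog-regulated genes has a direction column of the kind other (a word, not a number), and only its gene names were used.

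Samples were grouped by labelled genotype, lineage and sex. Counts of a line's 2 technical replicates were summed. The 8 embryos and the 7 lines were each fitted by the robust quasi-likelihood test of edgeR 4.0.16 (R 4.3.3; TMM scaling, filterByExpr), with Benjamini-Hochberg adjustment over all genes tested and a threshold of 0.05. Nothing says that embryos of a genotype came from separate litters, so p-values measure the spread between these samples. SE was obtained from the F statistic and the log2 fold change. CPM is counts-per-million of the library total, and CPM per kilobase uses the longest coding transcript in a GRCm38 annotation, which is not the annotation counted. Fits were tested on simulated data, in which embryos varied less than the real ones and changes were larger than those of members between genotypes. The simulation therefore does not show that embryo differences of the size seen would be detected. Alternatives used DESeq2 1.42.0, limma 3.58.1, other scaling, filters and terms, and each embryo, line or replicate left out. Counting intervals are exact at 95% and cover counting error only.

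All members were named, with up to 4 called genes of each pathway list in a line comparison by smallest p (fewer than 2 called: up to 2 as values), and up to 2 per list in embryos. Some genes of the cytosolic folate list that the rule names are not reported here. For members called in ES against both other lineages, the 3 non-members with the most alike level over lines were named. The members and lists were chosen with earlier results of these data known.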

Additional observations from a re-analysis of the deposited data

Results flagged for a closer look

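In 36 groups of 4 to 6 libraries or embryos (9 members in ES, TS and XEN libraries and null embryos), 4 held a value far from the others by the ratio of its gap to the range. Chance flags about 1 in 20 groups of independent values, but the line libraries are pairs from 2 or 3 lines, so that rate does not hold for them, and 3 of the 4 values lie in XEN libraries of 2 lines. Tdh was at 17.1 CPM in the second library of XEN line M2, against 1.31 to 2.71 CPM in the other XEN libraries. Tdh was at 59.7 CPM in null embryo F2, against 22.1 to 23.4 CPM in the other null embryos. Psat1 was at 412 CPM in the first library of XEN line M1, against 547 to 562 CPM in the others. Shmt2 was at 265 CPM in the second library of XEN line M1, against 161 to 174 CPM in the others. The sources of these values were not tested.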

How the results depend on the processing

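Of the member calls between lines, those of Tdh in all 3 comparisons, Gcat, Phgdh and Psph in ES against XEN, and Phgdh, Psat1 and Psph in TS against XEN were made under all 17 alternatives. Members called in ES against TS numbered 1 to 4 on leaving out a line or technical replicate and 1 with sex as a term, against 3. For TS against XEN they numbered 4 to 8 on leaving out, with 8 without XEN line M2, and 7 with DESeq2, against 4. For the null by sex interaction they numbered 0 to 1, with 1 without null embryo M1. With the 14 libraries unsummed (limma voom, line as random effect), a replicate block gave 3 members called in ES against TS, 6 in ES against XEN and 6 in TS against XEN, and the fit without the block gave the same counts. In ES against TS the 3 differed from those of the summed fit, since Psph was lost (adjusted p = 0.0888 with the block) and Gcat gained (0.0439). Same-numbered libraries did not deviate together (2 of 16 pairs over a correlation of 0.1), so the numbers do not pair lines.

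Of the single values 52 turned in sign, 46 of them in embryos, and none of these differences had been called. On leaving out 1 line, Mthfd2 ran from -0.49 to 0.13 and Shmt2 from -0.14 to 0.085 for ES against TS. On leaving out 1 line or technical replicate, Shmt2 ran from -0.46 to 0.10 for ES against XEN and from -0.44 to 0.12 for TS against XEN, above 0 in both only without the second technical replicates. On leaving out 1 embryo, null against Nanog-bearing ran from -0.64 to 0.88 for Gcat, -0.038 to 0.61 for Gldc and -0.41 to 1.33 for Mthfd2. Null against wild type ran from -0.30 to 1.46 for Mthfd2. Null against heterozygous ran from -0.71 to 2.33 for Gcat, -0.72 to 0.57 for Gldc, -0.53 to 1.19 for Mthfd2, -0.34 to 0.93 for Phgdh and -0.13 to 0.35 for Psat1. Heterozygous against wild type ran from -2.90 to 0.14 for Gcat, -0.44 to 0.83 for Phgdh, -0.25 to 0.037 for Psph, -0.59 to 0.22 for Shmt1, -0.13 to 0.26 for Shmt2 and -0.18 to 0.70 for Tdh. The interaction ran from -1.07 to 4.67 for Mthfd2, -0.098 to 0.85 for Phgdh, -0.96 to 0.32 for Psat1, -0.31 to 0.40 for Shmt2 and -0.44 to 1.00 for Tdh. Gcat in null against Nanog-bearing embryos turned to 0.029 with the size factors of DESeq2, 0.029 with DESeq2, 0.10 with limma voom, 0.00041 with no filter and 0.089 without sex. Limma voom gave -0.022 for Psat1 in null against heterozygous embryos and interactions of 1.43 for Mthfd2 and 0.014 for Shmt2. Without null embryos F1 and M2, Psph in null against wild type was -0.023 and the interaction of Psat1 was 0.82. The causes were not tested. With 2 heterozygous and 2 wild type embryos, and 24 counts of Tdh over the TS libraries, small differences were not detectable at this depth and spread.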

Other observations

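Bhmt, which passes a methyl group from betaine to homocysteine, was among the pathway genes with a high level in embryos, and it was picked out after its values were seen. It ran from 818 to 5018 CPM in null embryos, from 2318 to 3066 CPM in heterozygous embryos and from 1158 to 1286 CPM in wild type embryos. Its near copy Bhmt2 ran from 25.2 to 156 CPM, from 62.6 to 85.2 CPM and from 27.4 to 29.7 CPM in the same groups, and reads that the authors' counting could split between the pair make both values uncertain. In null against Nanog-bearing embryos Bhmt gave a log2 fold change of 0.23 ± 0.41 and Bhmt2 of 0.45 ± 0.48, and neither passed in edgeR (adjusted p = 0.998 and 0.996). Line libraries were made with another kit, and their levels are not compared with those of embryos. In lines Bhmt was at 1.05 to 17.5 CPM in ES libraries, at most 0.166 CPM in TS libraries and 0 counts in XEN libraries.

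Among the Nanog-bearing embryos, Gcat was at 7.39 CPM in the female heterozygous embryo, below all 7 other embryos, and Gldc was at 182 CPM in the male heterozygous embryo, above all others. Gcat of heterozygous against wild type embryos was -0.91, against -2.90 without the male and 0.14 without the female heterozygous embryo.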
